A study of Mus musculus with 46 samples.

Results

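Of the 55416 identifiers in the count table, 4 stand for genes of tRNA charging and tRNA processing that were taken by name. They are Tars, Rars2, Pop1 and Trmt10b, and all 4 had a mean above 5 CPM (gene counts relative to the TMM-scaled library size) and were kept. A total of 46 RNA-seq libraries from mouse embryonic fibroblasts (MEFs) were counted. Wild type MEFs received the vehicle DMSO in 11 libraries and borrelidin, an inhibitor of threonyl-tRNA synthetase, at 600 nM in 12. MEFs with a knockout of Atf4 (ATF4 KO), the gene of a transcription factor of the integrated stress response, received vehicle in 11 libraries and borrelidin in 12. All 4 groups were incubated for 7 h. The wild type MEFs were purchased, whereas the ATF4 KO line was made in house with CRISPR/Cas9 and cell sorting, so differences of genotype and of line origin cannot be told apart.

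Aminoacyl-tRNA synthetases attach an amino acid to its matching tRNA, and a tRNA left uncharged activates the kinase GCN2, which raises the translation of ATF4. ATF4 in turn is known for transcribing genes of amino acid supply and of tRNA charging. Before it is charged, a tRNA precursor is cut at its 5′ end by RNase P and carries methyl groups added by modifying enzymes. The 4 genes fall on both sides of these steps. Tars encodes the cytosolic threonyl-tRNA synthetase, the enzyme that borrelidin inhibits, and Rars2 the mitochondrial arginyl-tRNA synthetase. Pop1 encodes the largest protein subunit of RNase P and of its relative RNase MRP, and Trmt10b belongs to a family of enzymes that methylate position 9 of tRNA.

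Most rows of the table had levels that did not follow the gene of their identifier, so values were read in 2 chromosome intervals where levels did, as described in the processing. These run in GRCm38 from base 9071260 to base 37007773 of chromosome 15, with Tars and Pop1, and from base 5644090 to base 55532466 of chromosome 4, with Rars2 and Trmt10b. They hold 283 of the 8986 tested rows. Tars and Pop1 were themselves among the genes whose levels were compared. Rars2 and Trmt10b were not in the shortened copy of the study's values used for this, and their identity rests on the genes around them. The nearest compared genes lay 0.306 Mb below and 0.649 Mb above Trmt10b. For Rars2 these distances were 22.5 Mb below and 0.531 Mb above. The Atf4 row lies outside the intervals, and the loss of its transcript in the KO line was not analysed here.

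Assigned counts per library ran from 2476005 to 3467765 in wild type with vehicle, from 2047362 to 3043804 in wild type with borrelidin, from 2444047 to 3388068 in the KO line with vehicle and from 2626605 to 3320558 in the treated KO line. These counts were between 9.58% and 11.3% of the reads of a library. Within their groups, 14 libraries stood apart on the second principal component, which held 22.2% of the variance. They are replicates 1 to 8 of the 11 wild type vehicle libraries, replicates 1 to 3 of the KO line, both with vehicle and with the drug. None of the 12 wild type borrelidin libraries was among them, so in wild type the treatment and the library set are almost the same split. Results are given with and without the 14. On this component wild type libraries scored higher with borrelidin, and the vehicle libraries kept are those nearest the treated ones. A smaller wild type change without the 14 can follow from this choice. It cannot be told apart from an effect of the library set. Among mesenchymal markers in the intervals, mean CPM over all libraries was 565 for Tpm2, 110.3 for Tgfbr1, 49.0 for Npr3 and 39.5 for Reck. Group means of Npr3 were 68.8 and 87.5 CPM in wild type with vehicle and borrelidin and 16.3 and 22.4 in the KO line. Reck had 42.6 and 25.2 CPM in wild type and 37.4 and 52.8 in the KO line, with a change of -0.76 in wild type (edgeR adjusted p = 3.6e-05) and of 0.11 without the 14 (edgeR adjusted p = 0.7). The epithelial marker Esrp1 stood at 0.231. Of the neuronal markers Gabbr2 stood at 7.01 and Cntfr at 38.7. The B cell marker Cd72, which overlaps Tesk1, stood at 92.8, and Pax5 had group means of 0.322 and 0.157 CPM in wild type with vehicle and borrelidin and of 9.57 and 16.7 in ATF4 KO. The part of these marker differences in the results below was not tested.

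Tars (ENSMUSG00000022241, chromosome 15, 11382301 to 11399665, minus strand) had the highest level of the 4 genes. The windows from 250 bases before to 50 bases after the start, taken from RefSeq (GRCm38.p6), were found for 3 of the 4 genes and are shown because they were searched for the element through which ATF4 acts. Capitals mark TTGCATCA, a match to TTNCATCA, the core of the element that ATF4 binds with a C/EBP partner. The Tars window is chr15:11399609-11399908 on the minus strand, the Rars2 window chr4:34614707-34615006 on the plus strand, and the Trmt10b window chr4:45296918-45297217 on the plus strand.
Tars: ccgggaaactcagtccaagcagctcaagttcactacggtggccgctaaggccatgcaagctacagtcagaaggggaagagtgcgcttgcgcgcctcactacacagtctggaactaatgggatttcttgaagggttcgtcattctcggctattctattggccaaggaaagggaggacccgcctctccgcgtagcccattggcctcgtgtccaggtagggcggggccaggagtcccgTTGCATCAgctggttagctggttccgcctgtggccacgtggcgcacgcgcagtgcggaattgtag
Rars2: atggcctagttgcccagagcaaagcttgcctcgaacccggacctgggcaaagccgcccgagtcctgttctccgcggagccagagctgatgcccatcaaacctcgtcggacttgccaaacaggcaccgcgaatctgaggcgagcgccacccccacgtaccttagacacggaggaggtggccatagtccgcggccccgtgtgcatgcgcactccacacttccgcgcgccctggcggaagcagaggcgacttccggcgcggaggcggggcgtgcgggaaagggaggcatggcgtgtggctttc
Trmt10b: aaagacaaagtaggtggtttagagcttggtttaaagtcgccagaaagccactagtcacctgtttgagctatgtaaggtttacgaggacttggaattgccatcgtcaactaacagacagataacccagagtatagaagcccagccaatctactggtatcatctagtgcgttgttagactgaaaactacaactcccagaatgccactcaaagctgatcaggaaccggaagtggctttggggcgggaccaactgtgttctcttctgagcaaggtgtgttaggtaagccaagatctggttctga
Both strands were searched for 3 motifs, TTNCATCA, the cyclic AMP response element TGACGTCA and the CCAAT box, none of which overlapped another in these windows. In the Tars window TTGCATCA began 15 bases before the start, and 2 CCAAT boxes in reverse orientation began 96 and 55 bases before it. The Trmt10b window held 1 CCAAT box, 108 bases before the start. None of the 3 motifs was found in the Rars2 window. Among 32544 promoter windows of the same length, TTNCATCA was present in 3.91%, TGACGTCA in 1.8% and CCAAT in 37.4%. The share of G and C was 59% for Tars, 66.3% for Rars2 and 46% for Trmt10b, beside a median of 53% over all windows, and the windows held 20, 30 and 6 CpG dinucleotides.

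**Figure D1:**
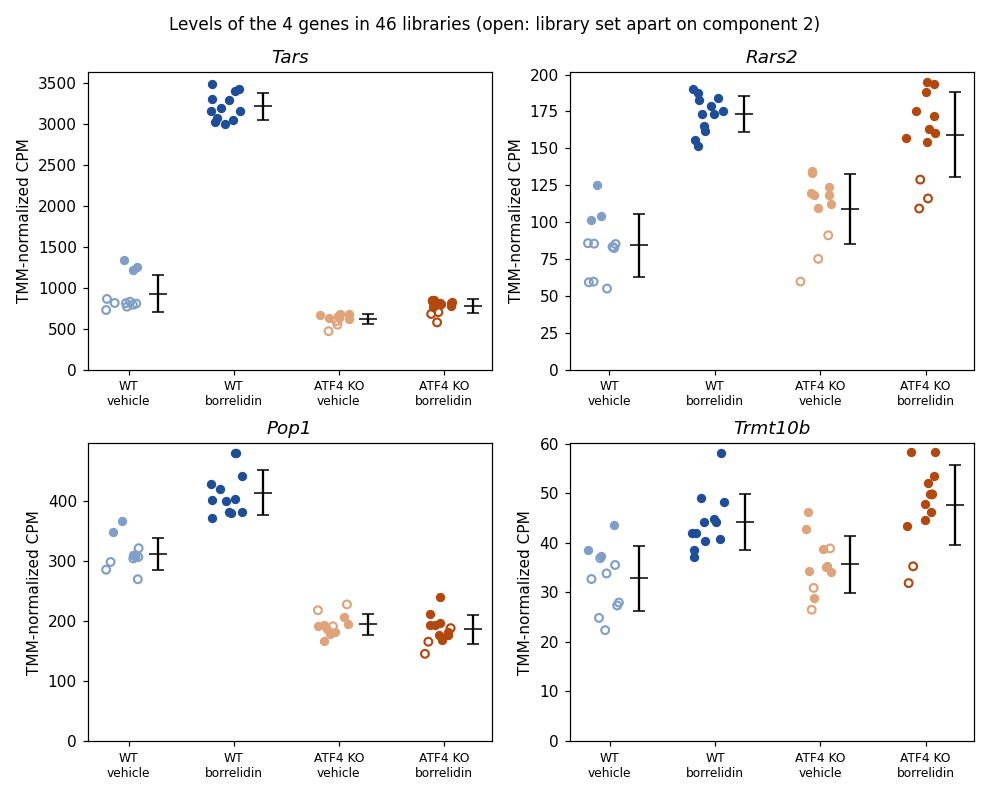
Level of each gene in the 46 libraries, in CPM after TMM normalization, by group. Each point is a library, open points are the 14 libraries that stood apart, and the bars give mean and SD. Tars in wild type with borrelidin lies between 3007 and 3487, above every other library, while Pop1 in both ATF4 KO groups lies below every wild type library.

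Tars was 3.46-fold higher with borrelidin than with vehicle in wild type MEFs, and all 4 genes were called higher with the drug there. With vehicle, Tars in wild type had a lowest, median and highest level of 730, 816 and 1338 CPM. With borrelidin the lowest was 3007, the median 3181 and the highest 3487. All 12 treated libraries lay above all 11 vehicle libraries, and the change was 1.79 on the log2 scale (SE 0.09, edgeR adjusted p = 2.1e-22). Within the vehicle group, the 8 libraries that stood apart lay at 730 to 865 CPM and the other 3 at 1223 to 1338. Without the libraries that stood apart the change of Tars was 1.34 (edgeR adjusted p = 3.5e-19).

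Rars2 (ENSMUSG00000028292, chromosome 4, 34614957 to 34660167, plus strand) charges arginine tRNA for translation inside mitochondria, so it is not an enzyme that borrelidin is known to bind. In wild type with vehicle its lowest, median and highest levels were 55.0, 85.2 and 125 CPM. With borrelidin they were 152, 174 and 190 CPM. The groups did not overlap, and Rars2 rose by 1.04 on the log2 scale (2.06-fold, SE 0.12, edgeR adjusted p = 4.7e-10). The vehicle libraries that stood apart lay at 55.0 to 85.8 CPM and the other 3 at 101 to 125. Without the set of 14 the rise was 0.65 (edgeR adjusted p = 3.1e-07).

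Pop1 (ENSMUSG00000022325, chromosome 15, 34495304 to 34530648, plus strand) showed a smaller rise in wild type. Its lowest, median and highest levels were 269.5, 307 and 366 CPM with vehicle. With borrelidin they were 371, 402 and 479.6 CPM. The groups did not overlap, although the highest vehicle and the lowest treated library were close, and the change was 0.41 (SE 0.06, edgeR adjusted p = 7.9e-07). Without the libraries that stood apart it was 0.28 (edgeR adjusted p = 0.021).

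Trmt10b (ENSMUSG00000035601, chromosome 4, 45297127 to 45316131, plus strand) had the lowest level, with 63 to 182 counts per library. In wild type with vehicle its lowest, median and highest levels were 22.4, 33.8 and 43.6 CPM, and with borrelidin they were 37.2, 43.0 and 58.1. The groups overlapped, with 6 of the 12 treated libraries above every vehicle library, and the change was 0.43 (SE 0.10, edgeR adjusted p = 0.0005). Without the libraries that stood apart the change was 0.14 and not past the threshold (edgeR adjusted p = 0.49).

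For the response in wild type, 4 of 4 genes were thus called higher at an adjusted p under 0.05, beside 26.5% of all 8986 tested rows and 41.3% of the 283 interval rows. It was 3 of 4 without the libraries that stood apart, beside 15.4% of the interval rows. At a stricter 1e-10, Tars alone was called, beside 1.71% of rows. For 3 of the 4 genes the groups did not overlap with treated libraries above, beside 4.06% of rows. The median change of the 4 genes was 0.73, of the 283 rows of the intervals 0.17 and of all tested rows -0.06 on the log2 scale. Tars had the second highest change of the 283 (ranked 6 of 286 rows tested without the libraries that stood apart), Rars2 ranked 15 from the top, Trmt10b 84 and Pop1 88. With scaling factors taken from the interval rows alone, the median of these rows moved from 0.17 to -0.05, and the changes were 1.59 for Tars, 0.85 for Rars2, 0.22 for Trmt10b (edgeR adjusted p = 0.023) and 0.19 for Pop1 (edgeR adjusted p = 0.019). In a model with ATF4 activity, set to high for treated wild type cells alone, and genotype as terms, the activity term is by construction the change of wild type with borrelidin, so it adds no separate result. In it 4 of 4 genes were higher, beside 25.5% of rows, and Tars passed 1e-10, beside 1.24%. The call of Trmt10b was lost there without the libraries that stood apart (0.14, edgeR adjusted p = 0.64), with the library set as a block (0.19, edgeR adjusted p = 0.31) and with scaling from the interval rows (0.22, edgeR adjusted p = 0.054).

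Without ATF4, 3 of the 4 genes were still higher with borrelidin, and Pop1 was not called. Tars in ATF4 KO had a lowest, median and highest level of 471, 635 and 686 CPM with vehicle and of 579, 811 and 852 CPM with borrelidin. In 10 of 12 treated libraries it lay above every vehicle library, and it rose by 0.32 (SE 0.09, edgeR adjusted p = 0.003). In pairs of the same replicate number, treated Tars was the higher one in 11 of 11. Whether these numbers pair samples was not tested. In wild type the treated library was higher in 11 of 11 such pairs for Tars, Rars2 and Pop1. For Trmt10b it was higher there in 10 of 11. Within the libraries that stood apart the mean of Tars in ATF4 KO was 539 ± 62.1 CPM with vehicle and 655 ± 66.6 with borrelidin (SD, n = 3 each), and within the others it was 653 ± 24.2 (SD, n = 8) and 818 ± 30.9 (SD, n = 9). The change of Tars was 0.32 without the libraries that stood apart (edgeR adjusted p = 1.5e-07).

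Among the 4 genes, Rars2 had the highest change in ATF4 KO, and it ranked 33 of the 283 interval rows. Its lowest, median and highest levels were 59.8, 118 and 135 CPM with vehicle and 109, 162 and 195 CPM with borrelidin. The groups overlapped, with 9 of 12 treated libraries above every vehicle library, and the rise was 0.55 (SE 0.12, edgeR adjusted p = 0.00022). Among the libraries that stood apart Rars2 lay at 59.8 to 91.1 CPM with vehicle and at 109 to 129 with borrelidin. Among the others it lay at 110 to 135 and at 154 to 195 CPM, so neither set overlapped within itself. In 11 of 11 pairs the treated library was higher. Without the set of 14 the rise was 0.51 (edgeR adjusted p = 1.6e-08).

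Pop1 in ATF4 KO lay at 166, 192 and 228 CPM with vehicle and at 145, 185 and 240.5 CPM with borrelidin, as lowest, median and highest. The groups overlapped almost completely, the treated library was higher in 6 of 11 pairs, and the change was -0.06 with a 95% interval from -0.19 to 0.07 (edgeR adjusted p = 0.51). Among the libraries that stood apart the mean of Pop1 was 212 ± 18.9 CPM with vehicle and 166 ± 21.4 with borrelidin (SD, n = 3 each). Among the others it was 188 ± 12.1 (SD, n = 8) and 193 ± 22 (SD, n = 9), and without the set of 14 the change was 0.04 (edgeR adjusted p = 0.65).

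Trmt10b in ATF4 KO lay at 26.5, 35.2 and 46.1 CPM with vehicle and at 31.9, 48.8 and 58.3 CPM with borrelidin, as lowest, median and highest. The groups overlapped, with 8 of 12 treated libraries above every vehicle library and 10 of 11 pairs higher, and the rise was 0.42 (SE 0.10, edgeR adjusted p = 0.0012). It was 0.46 without the libraries that stood apart (edgeR adjusted p = 8.9e-05). For the response in ATF4 KO, 3 of 4 genes were called higher, beside 15.0% of tested rows and 25.4% of the interval rows, and 0 of 4 had groups apart, beside 1.1% of rows. The median change of the 4 genes was 0.37, beside 0.03 for the interval rows and -0.03 for all tested rows. Without the libraries that stood apart 3 of 4 were again called higher, beside 31.1% of the interval rows.

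**Figure D2:**
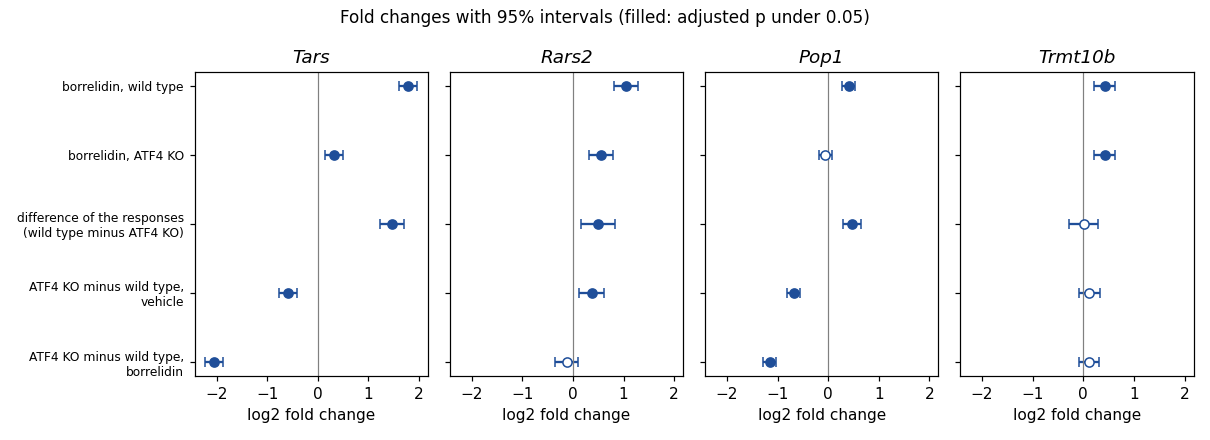
Log2 fold change of each gene in the 5 comparisons, with its 95% interval from the fit of all 46 libraries. Filled points have an edgeR adjusted p under 0.05. The response of Tars is 1.79 in wild type and 0.32 in ATF4 KO, while that of Trmt10b is 0.43 and 0.42.

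The difference of the responses, wild type minus ATF4 KO, asks how far the effect of borrelidin depended on the line. It was largest among the 4 for Tars, at 1.47 on the log2 scale (SE 0.12, edgeR adjusted p = 1.3e-13), and was 1.02 without the libraries that stood apart (edgeR adjusted p = 3.8e-13). Rars2 differed by 0.49 (SE 0.16, edgeR adjusted p = 0.019), which fell to 0.14 without those libraries (edgeR adjusted p = 0.49) and to 0.08 with the library set as a block (edgeR adjusted p = 0.65). Pop1 differed by 0.47 (SE 0.09, edgeR adjusted p = 0.0001), which was 0.24 without those libraries (edgeR adjusted p = 0.19) and 0.42 with the block (edgeR adjusted p = 0.00047). For the mitochondrial synthetase and the RNase P subunit, the call of a difference was thus lost when those libraries were left out. Trmt10b, the tRNA methyltransferase, differed by 0.01 with a 95% interval from -0.28 to 0.30 (edgeR adjusted p = 0.97), and by -0.32 without those libraries (edgeR adjusted p = 0.21). In all, 3 of 4 genes were called higher, beside 16.5% of tested rows and 30.0% of the interval rows, and at 1e-10 Tars alone, beside 0.501%. The median difference of the 4 genes was 0.48, beside 0.15 for the interval rows and -0.05 for all tested rows. Without the libraries that stood apart 1 of 4 was called higher, beside 9.09% of the interval rows.

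**Figure D3:**
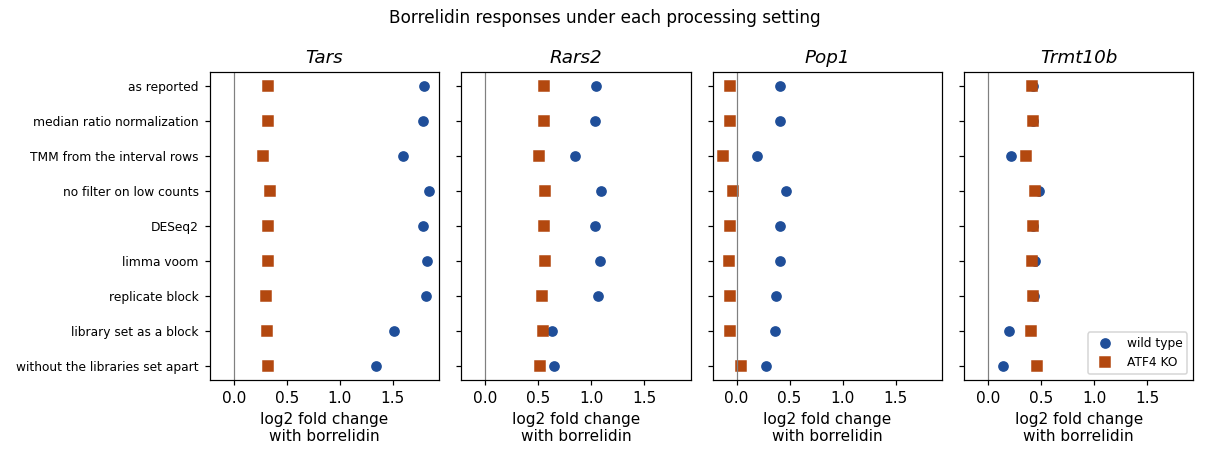
Borrelidin response of each gene in wild type (circles) and ATF4 KO (squares) under 9 processing settings, as log2 fold change. Tars in wild type stays between 1.34 and 1.84 and apart from ATF4 KO in each setting. For Rars2 the circle moves to 0.65 and 0.63 when the library set is left out or blocked, beside 0.51 and 0.55 in ATF4 KO.

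Under vehicle, the KO line had less Tars and less Pop1 RNA than wild type MEFs. Tars had means of 931 ± 222 CPM in wild type and 622 ± 63.6 in ATF4 KO (SD, n = 11 each), without overlap between the groups. This was a change of -0.58 (SE 0.09, edgeR adjusted p = 4.3e-07), and of -0.96 without the libraries that stood apart (edgeR adjusted p = 1.4e-16). Pop1 had means of 311 ± 26.7 CPM in wild type and 194 ± 17.5 in ATF4 KO (SD, n = 11 each), also without overlap. Its change was -0.68 (SE 0.07, edgeR adjusted p = 4.6e-12), and -0.86 without those libraries (edgeR adjusted p = 4e-10). Rars2 went the other way, with 84.3 ± 21.1 CPM in wild type and 109 ± 23.8 in ATF4 KO (SD, n = 11 each), overlapping groups and a change of 0.37 (SE 0.12, edgeR adjusted p = 0.013). The call of Rars2 was lost without those libraries (0.14, edgeR adjusted p = 0.31) and when the fit held the compared groups alone (0.35, edgeR adjusted p = 0.059). Trmt10b had 32.8 ± 6.49 and 35.6 ± 5.81 CPM (SD, n = 11 each), a change of 0.12 with a 95% interval from -0.09 to 0.33 (edgeR adjusted p = 0.4). Of the 4 genes 2 were called lower, beside 17.2% of tested rows, and 1 higher, beside 18.1%. Pop1 alone passed 1e-10, beside 0.868% of rows lower at that threshold, and 2 of 4 genes had groups apart and lower, beside 2.41%. Without the libraries that stood apart 2 were called lower and 0 higher, beside 13.3% and 13.6% of the interval rows.

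With borrelidin, Tars and Pop1 were again lower in ATF4 KO. Tars had 3217 ± 164 CPM in wild type and 777 ± 83.5 in ATF4 KO (SD, n = 12 each), a change of -2.05 (SE 0.09, edgeR adjusted p = 8.1e-26), the second lowest of the 283 interval rows. Pop1 had 414 ± 37.2 and 186 ± 24.1 CPM (SD, n = 12 each), a change of -1.15 (SE 0.06, edgeR adjusted p = 4.3e-21). Neither gene had overlapping groups, and without the libraries that stood apart the changes were -1.98 and -1.10. Rars2 had 173 ± 12.3 CPM in wild type and 159 ± 28.7 in ATF4 KO (SD, n = 12 each), a change of -0.12 with a 95% interval from -0.35 to 0.10 (edgeR adjusted p = 0.37). Trmt10b had 44.1 ± 5.65 and 47.6 ± 8.09 CPM (SD, n = 12 each), a change of 0.11 with an interval from -0.09 to 0.31 (edgeR adjusted p = 0.36), and was called higher without the libraries that stood apart (0.20, edgeR adjusted p = 0.04). Of the 4 genes 2 were called lower, beside 24.1% of rows, both also at 1e-10, beside 2.62%, and both with groups apart, beside 6.09%. Without the libraries that stood apart 2 were called lower and 1 higher, beside 30.1% and 34.6% of the interval rows. The comparisons share samples with one another and are not independent. The median of the 4 genes was -0.23 under vehicle and -0.64 with borrelidin, beside 0.10 and -0.03 for the interval rows.

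Per kilobase of exon, the order of levels in wild type with vehicle was Tars at 158 ± 37.7 CPM per kb, Pop1 at 82.1 ± 7.04, Rars2 at 30.4 ± 7.61 and Trmt10b at 12.4 ± 2.46 (SD, n = 11). With borrelidin in wild type the levels in the same order were 545 ± 27.8, 109 ± 9.79, 62.5 ± 4.45 and 16.7 ± 2.14 CPM per kb (SD, n = 12). In ATF4 KO with vehicle, Pop1 at 51.2 ± 4.61 and Rars2 at 39.2 ± 8.58 CPM per kb (SD, n = 11) lay closer together. With borrelidin in ATF4 KO the order of those was turned, with Rars2 at 57.5 ± 10.3 and Pop1 at 49.1 ± 6.35 CPM per kb (SD, n = 12), a difference within their spread. Tars at 132 ± 14.1 and Trmt10b at 18.0 ± 3.06 CPM per kb stayed at the ends of the order there. Counts are relative to the reads assigned in this table, so levels cannot be set beside those of other tables.

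The other genes of tRNA charging and processing were few in the intervals. Of 183 such genes found in GENCODE M21, 7 lie in them and 6 were tested, the 4 above with Rpp25l, which is related to a subunit of RNase P and RNase MRP, and Trmo, a tRNA methyltransferase. Rpp25l (chromosome 4, 41712033 to 41713534) had means of 63.3 ± 21.4 and 99.2 ± 26.2 CPM in wild type with vehicle and borrelidin (SD, n = 11 and 12), a rise of 0.65 (edgeR adjusted p = 0.0019), and of 0.46 in ATF4 KO (edgeR adjusted p = 0.042). These values without the libraries that stood apart were 0.06 (edgeR adjusted p = 0.85) and 0.49 (edgeR adjusted p = 0.00091). Trmo (chromosome 4, 46376505 to 46389437) had 23.5 ± 7.68 and 40.9 ± 5.32 CPM (SD, n = 11 and 12), a rise of 0.81 (edgeR adjusted p = 3.5e-05), and of 0.47 in ATF4 KO (edgeR adjusted p = 0.018). Here they were 0.27 (edgeR adjusted p = 0.15) and 0.51 (edgeR adjusted p = 2.7e-05) without those libraries. The seventh, Rmrp, the RNA of RNase MRP, had 0 counts in all 46 libraries. It stands in the annotation as a pair of overlapping entries, and a read on both can be counted as ambiguous. The 0 thus sets no limit on its level. Of the 6 tested genes, 6 were higher and 0 lower with borrelidin in wild type. Beside them 26.5% of tested rows and 41.3% of the interval rows were higher. The wild type calls of Rpp25l, Trmo and Trmt10b were lost without the libraries that stood apart, beside 15.4% of the interval rows higher. In ATF4 KO 5 of the 6 were higher and 0 lower, beside 15.0% of tested rows and 25.4% of the interval rows. That share of the interval rows was 31.1% without the libraries that stood apart. The difference of the responses was called for 3, beside 30.0%, all among the 4 genes above, and was 0.18 for Rpp25l (edgeR adjusted p = 0.59) and 0.34 for Trmo (edgeR adjusted p = 0.22).

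**Figure D4:**
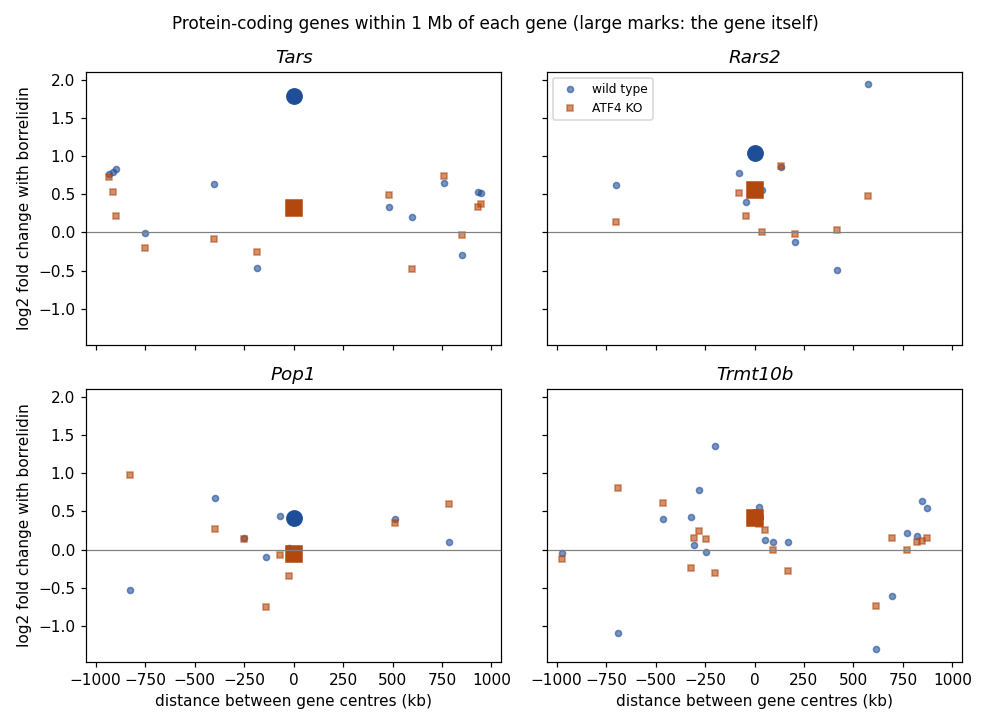
Borrelidin response of tested protein-coding genes within 1 Mb of each of the 4 genes, against the distance between gene centres in kb, in wild type (circles) and ATF4 KO (squares), with the gene itself as the large marks (for Trmt10b the square covers the circle). Tars at 1.79 lies above its 12 neighbours in wild type, the highest of which is at 0.83 with all libraries, while Rars2, Pop1 and Trmt10b each have a neighbour with a higher change.

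Within 1 Mb, 12 other protein-coding genes were tested near Tars, with changes in wild type from -0.47 to 0.83, all lower than that of Tars. Without the libraries that stood apart, Npr3, one of the 12, changed by 1.37 (edgeR adjusted p = 6.2e-05), beside 1.34 for Tars. The nearest of them, Adamts12 at 33.1 kb, changed by -0.47 (edgeR adjusted p = 0.076). Rars2 starts 13 bases from Orc3, a subunit of the origin recognition complex, which rose by 0.39 in wild type (edgeR adjusted p = 3.3e-08) and by 0.22 in ATF4 KO (edgeR adjusted p = 0.001). The wild type change of Orc3 without the libraries that stood apart was 0.18 (edgeR adjusted p = 0.056). On its other side, at 3.09 kb, Slc35a1, the CMP-sialic acid transporter, changed by 0.56 in wild type and by 0.01 in ATF4 KO, a difference of 0.55 (edgeR adjusted p = 0.0045) that was 0.15 without those libraries (edgeR adjusted p = 0.49). Pop1 starts 49 bases from Rida, and under vehicle both were lower in ATF4 KO, Rida by a change of -0.56 (edgeR adjusted p = 5.1e-06). With borrelidin Rida changed by 0.02 in wild type (edgeR adjusted p = 0.85) and by -0.35 in ATF4 KO (edgeR adjusted p = 0.0042), a difference of 0.37 (edgeR adjusted p = 0.029) in the direction of that of Pop1. The difference of Rida without the libraries that stood apart was 0.22 (edgeR adjusted p = 0.31). Pop1 has Stk3 on its other side, at 345 kb. Stk3 rose by 0.40 in wild type (edgeR adjusted p = 0.00088) and by 0.34 in ATF4 KO (edgeR adjusted p = 0.0078). The difference of Stk3 was 0.06 (edgeR adjusted p = 0.78), and -0.21 without those libraries (edgeR adjusted p = 0.32). Trmt10b lies 482 bases from Exosc3, a subunit of the RNA exosome, which rose by 0.56 in wild type and by 0.34 in ATF4 KO (0.14, edgeR adjusted p = 0.29, and 0.36, edgeR adjusted p = 1.9e-05, without those libraries). Tomm5, 189 kb to the other side, changed by 1.35 in wild type (edgeR adjusted p = 0.00047) and by -0.31 in ATF4 KO (edgeR adjusted p = 0.49). Its difference was 1.66 (edgeR adjusted p = 0.0048), and 0.46 without those libraries (edgeR adjusted p = 0.14). No annotated gene overlaps any of the 4.

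The 4 genes did not move as one over the 46 libraries. As a description, Pearson's r of log2 CPM was 0.85 between Tars and Pop1 and 0.80 between Rars2 and Trmt10b, while it was 0.12 between Rars2 and Pop1 and -0.01 between Pop1 and Trmt10b. After group means were removed, r was 0.67 between Tars and Rars2, 0.63 between Rars2 and Trmt10b and 0.39 between Tars and Pop1. These values share libraries, depth and the split of libraries described above. Among 239 protein-coding genes of the intervals, those most like Tars were Rad1 (r = 0.93), C9orf72 (r = 0.92) and Drosha (r = 0.91). Rars2 was most like Zfp622 (r = 0.87), Dnajc21 (r = 0.87) and Osgin2 (r = 0.86). Pop1 was most like Ank (r = 0.93), Nol6 (r = 0.87) and Tars. Trmt10b was most like Smim8 (r = 0.87), Aptx (r = 0.85) and 2610301B20Rik (r = 0.80). Within groups r for Pop1 was 0.09 with Ank and 0.14 with Nol6, so these likenesses were between groups, whereas Trmt10b kept 0.75 with Smim8 and Tars 0.77 with C9orf72.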

How the data were processed

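RNA was taken from MEFs of 4 groups, and the labels give the 46 libraries as biological replicates. The authors aligned reads with HISAT2 to mm10 and deposited raw counts per Ensembl identifier, without normalization or pooling. For counting, the submitters' processing notes give HTSeq, and feature counts is named in the methods. The software versions, strandedness and annotation release were not given in the sources used here. Rows that name no gene held on average 69.0% of reads as no feature, 10.8% not aligned, 5.09% of low quality, 3.97% not unique and 0.251% ambiguous, and stayed out of library sizes and tests. Identifiers were matched to GENCODE M21. Row identity was checked against mean levels in a shortened copy of the paper's supplement, which held part of its genes. Pearson's r across genes was 0.976 over 30 genes of the 2 intervals and 0.146 over 727 genes elsewhere. The intervals had been drawn on such levels, and the check is a description.

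Counts were fitted with edgeR 4.0.16 in R 4.3.3 (TMM scaling, filterByExpr, quasi-likelihood test of the 4 group means, Benjamini-Hochberg over 8986 rows, calls at 0.05), and the steps were tested on simulated data. CPM are TMM-normalized, with SD over libraries. log2 CPM for correlations used a prior count of 2. Libraries stood apart where the widest gap of component 2 scores (500 most variable rows) exceeded 50% of the group's range. The design stated by the study is ATF4 activity plus genotype in limma. It was fitted with edgeR since the values are counts. Alternatives were DESeq2 1.42.0, limma 3.58.1, other scaling, filters, groups and blocks. Between libraries of the same replicate number, r of deviations from group means was 0.184 to 0.782 in 11 of 11 pairs in ATF4 KO. It passed 0.1 in 2 of 11 pairs in wild type. In ATF4 KO both libraries of a pair stood apart or neither did, so r can follow from the library set. Libraries of unlike numbers were not compared, so whether the numbers pair samples was not tested. Named genes were the 4 genes, list genes in the intervals, the nearest tested protein-coding neighbours, the 3 genes most alike, and markers. Members and lists were chosen with earlier results of these data known. Tables were made in Python 3.11.15.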

Additional observations from a re-analysis of the deposited data

Results flagged for a closer look

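The borrelidin response differed between the lines for 3 of the 4 genes by a test of the difference itself, the interaction of line and treatment in edgeR. Beside these 3, all higher, 16.5% of tested rows and 30.0% of the interval rows were called higher. The share of the interval rows was 9.09% without the libraries that stood apart. For Tars the response in wild type exceeded that in ATF4 KO by 1.47 on the log2 scale, and the difference stayed past the threshold without the libraries that stood apart (1.02, edgeR adjusted p = 3.8e-13). For Rars2 it exceeded it by 0.49 and for Pop1 by 0.47, and neither was past the threshold without those libraries, where the differences were 0.14 (edgeR adjusted p = 0.49) and 0.24 (edgeR adjusted p = 0.19). With the library set as a block, Pop1 kept the call (0.42, edgeR adjusted p = 0.00047). Rars2 lost it there (0.08, edgeR adjusted p = 0.65).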

How the results depend on the processing

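Of 232 gene values under the alternatives, 199 kept direction and side of the threshold, 24 kept direction and lost the call, 1 gained it and 8 changed sign, none of these 8 being called. The values at 1e-10 come from the same fit, so their direction could not change. Those of ATF4 activity repeat the wild type response, so the 232 are not separate checks. At 1e-10, a threshold the study used for lists of all genes, the number of called genes was 1 in wild type, 0 in ATF4 KO, 1 for the difference, 1 under vehicle and 1 for ATF4 activity, against 4, 3, 3, 3 and 4 at 0.05. Of all tested rows, 1.71% were higher at 1e-10 in wild type, 0.501% for the difference and 1.24% for ATF4 activity. Under vehicle 0.868% were lower, and the share in ATF4 KO was not counted. The 0 in ATF4 KO follows from the stricter threshold, since 3 genes passed 0.05 in edgeR. For tRNA synthetase genes the paper used a less strict threshold, and it reports Tars among those raised with ATF4. Without the libraries that stood apart 1 difference was called, that of Tars, beside 9.09% of the interval rows called higher (30.0% with these libraries). The signs that turned were those of Pop1 in ATF4 KO without these libraries (0.042), of the Trmt10b difference with scaling from the interval rows (-0.14), with DESeq2 (-0.00016), without these libraries (-0.32) and with the library set as a block (-0.21), of Trmt10b under vehicle without these libraries (-0.12) and with the block (-0.025), and of Rars2 under borrelidin with the block (0.0099). The cause was not tested. With the replicate number as a block, Tars changed by 0.31 in ATF4 KO, and the block changed no call. Limits are the few assigned reads, 1 line per genotype, and levels of Trmt10b resting on 63 to 182 counts per library.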
